A study of Mus musculus with 4 samples.

Results

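The STAT transcription factors were examined in T helper 17 (Th17) cells cultured with or without serum amyloid A1. They were taken as the rows of the authors' deposited table whose gene symbol is Stat2, Stat3, Stat4, Stat5a, Stat5b or Stat6, which gave 6 of 23356 gene rows. The sequenced RNA came from cells of C57BL/6 mice aged 6 to 8 weeks, kept for 48 h in Th17 culture. In 2 libraries the cells had received serum amyloid A1 of the mouse as a recombinant protein (SAA1), at 2 ng/ml as labelled; it is a protein that the liver and gut release in inflammation. In the other 2 libraries the treatment is labelled none, with the abbreviation veh in the titles, read here as vehicle. The sources used here do not give the cytokines that made the cells Th17, and nothing says whether the libraries of a group came from separate mice.

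STAT proteins wait in the cytoplasm until a cytokine receptor is engaged. Janus kinases (JAKs) bound to the receptor then phosphorylate them on a tyrosine, and they pair, enter the nucleus and bind DNA. Their activity is therefore set largely by phosphorylation, which RNA sequencing does not measure. In T helper cells STAT3 carries the signals of IL-6, IL-23 and IL-21 and is required for the Th17 fate. STAT4 acts below IL-12, STAT5A and STAT5B below IL-2 and IL-7, STAT6 below IL-4, and STAT2 below type I interferon.

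Stat5a and Stat5b are a duplicated pair. A stretch of likeness near an annotated start site of each is shown because it lets a reader see the kinship of the only members that also share transcript sequence. RefSeq windows on GRCm38.p6, running from 250 bases before to 50 bases after an annotated start, were available for all 6 genes, 9 windows in all. Between a window of Stat5a on the plus strand (chr11:100860381-100860482) and one of Stat5b on the minus strand (chr11:100822563-100822664), a stretch of 102 bases in each gene aligned with 83 identical bases over 104 columns (79.8%). This was the best-aligned of the 4 pairs of windows of these genes, with an alignment score of 56. Its Stat5b window lies inside the gene and not at the gene's outermost start. The Stat5b window at the outermost start scored only 19 and 11 against the windows of Stat5a. Capitals mark bases that differ between the genes or face a gap.
Stat5a: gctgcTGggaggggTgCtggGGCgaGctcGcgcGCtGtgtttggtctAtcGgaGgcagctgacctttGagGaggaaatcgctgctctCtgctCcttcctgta
Stat5b: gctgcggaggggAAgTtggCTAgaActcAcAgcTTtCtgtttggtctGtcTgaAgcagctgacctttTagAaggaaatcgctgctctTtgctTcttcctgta
The transcripts resemble each other too. Of the distinct 50-base words in the coding transcripts of Stat5a, 14.7% (608 of 4149) also occurred in those of Stat5b, and they made up 11.1% of the 5488 words of Stat5b. No other pair of the 6 genes shared a word of that length, so among the 6 genes the values of Stat5a and Stat5b are the ones in which reads could have been divided between members. The sources used here do not give the read length or the handling of such reads.

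The same windows were searched on both strands for TTCNNNGAA, a palindromic element that STAT dimers can bind. They were also searched for the core of the interferon response element (GAAA, any 2 bases, GAAA), bound by STAT2 with its partners. Palindromes of other spacing were not searched for, so the search does not cover the sites of every member. The motifs can overlap in the letters GAA. None of the 9 windows held TTCNNNGAA, which occurs in 8.30% of all 32851 promoter windows of this length. Both Stat2 and Stat4 had a window with the interferon element, which occurs in 3.44% of all windows. The Stat2 window (chr10:128270248-128270547, plus strand) and the Stat4 window (chr1:52007990-52008289, plus strand) are shown because they hold this element. Capitals mark the match, which lies on the minus strand in Stat2.
Stat2: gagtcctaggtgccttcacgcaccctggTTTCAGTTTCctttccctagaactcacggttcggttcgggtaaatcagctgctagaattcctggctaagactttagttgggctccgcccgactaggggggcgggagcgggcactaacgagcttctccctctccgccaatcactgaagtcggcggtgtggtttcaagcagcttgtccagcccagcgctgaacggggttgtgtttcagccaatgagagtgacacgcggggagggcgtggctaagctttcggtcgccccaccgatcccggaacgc
Stat4: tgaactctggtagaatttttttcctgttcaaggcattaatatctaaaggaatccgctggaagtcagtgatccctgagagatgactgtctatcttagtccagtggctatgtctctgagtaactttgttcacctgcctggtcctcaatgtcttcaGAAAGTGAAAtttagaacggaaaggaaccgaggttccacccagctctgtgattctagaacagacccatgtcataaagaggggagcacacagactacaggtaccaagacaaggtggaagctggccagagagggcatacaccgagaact
A match of letters is a description and does not show that a factor binds there.

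All 6 STAT transcripts were present in both groups, and none differed between them by the test of the authors' deposited table. Each group has a single value in FPKM, a count of fragments divided by transcript length and by the library's mapped fragments, which Cuffdiff made from both of its libraries. No value per library was given, so no spread between libraries can be shown, and the depth is unknown. In the authors' deposited table, none of the 6 genes (0) had an adjusted p under 0.05, against 6.52% of all 11481 tested rows (3.97% called higher and 2.55% called lower). With an adjusted p under 0.01 or under 0.1 the count was also 0 of 6, against 3.8% and 8.81% of all tested rows. Without adjustment 0 of 6 had a p under 0.05, against 15.8% of all tested rows. In bulk RNA, fewer cells of a type and less RNA per cell cannot be told apart.

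**Figure D1:**
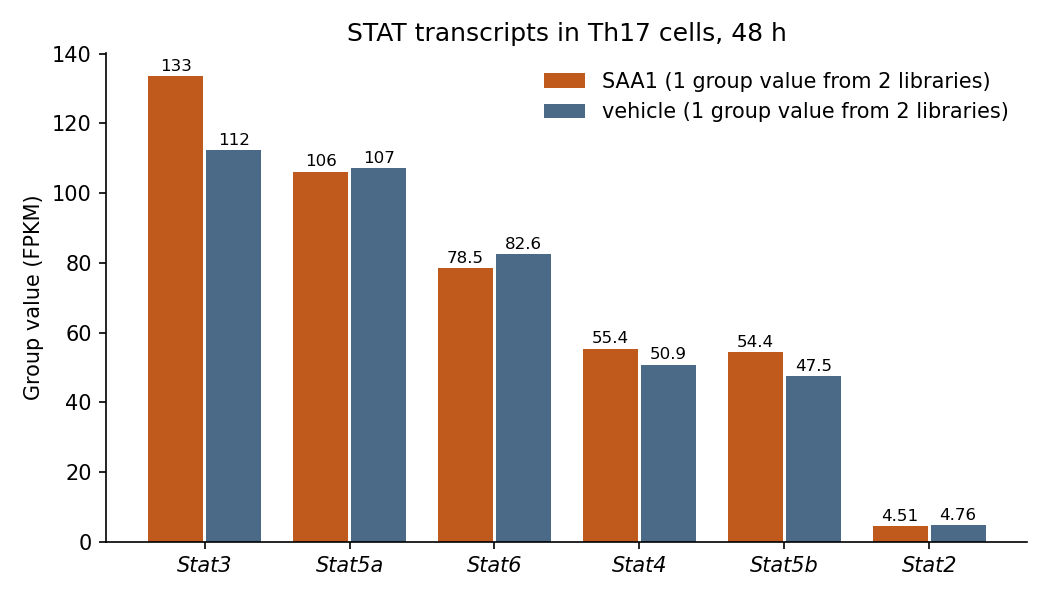
Level of each STAT transcript in FPKM in SAA1-treated cells (left bar of each pair) and vehicle cells (right bar), 1 group value from 2 libraries per bar, with no error available. Stat3 stood at 133 FPKM in SAA1 cells and 112 FPKM in vehicle cells, and the order of the 6 genes was the same in both groups.

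Stat3, the STAT of the Th17 programme, was the most abundant in both groups. Its level was 133 FPKM in SAA1 cells and 112 FPKM in vehicle cells, a difference of 21.2 FPKM or 18.9%. The log2 ratio was 0.25 ± 0.20 (SE implied by the deposited test statistic), with a 95% interval from 0.904-fold to 1.56-fold. The authors' deposited table gives Stat3 an adjusted p of 0.40 and an unadjusted p of 0.077, the smallest of the 6 genes. Of all tested rows, 31.0% had a larger absolute log2 ratio. Most of those tested rows were at lower levels than Stat3, and the share among genes of its own level was not taken.

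Stat5a and Stat5b encode the STATs that carry IL-2 and IL-7 signals and can restrain IL-17 production. Stat5a was at 106 FPKM in SAA1 cells and 107 FPKM in vehicle cells, with a log2 ratio of -0.01 ± 0.20 (0.0035 when centred on the median of all tested rows) and a 95% interval from 0.756-fold to 1.30-fold. Stat5b was at 54.4 FPKM in SAA1 cells and 47.5 FPKM in vehicle cells, with a log2 ratio of 0.20 ± 0.20 and a 95% interval from -0.19 to 0.59 on the log2 scale. The authors' deposited table gives Stat5a an adjusted p of 0.99 and Stat5b one of 0.58. Stat5a was thus 1.95 times as abundant per length as Stat5b in SAA1 cells and 2.26 times in vehicle cells, and that difference between the ratios was not tested.

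Stat4, the STAT of the IL-12 response and of Th1 cells, was at 55.4 FPKM in SAA1 cells and 50.9 FPKM in vehicle cells. Its log2 ratio was 0.12 ± 0.20, with a 95% interval from 0.830-fold to 1.43-fold, and its adjusted p was 0.80 (authors' deposited table). Stat6, the STAT of the IL-4 response and of Th2 cells, was at 78.5 FPKM in SAA1 cells and 82.6 FPKM in vehicle cells. Its log2 ratio was -0.07 ± 0.24, with an interval from 0.683-fold to 1.32-fold, and its adjusted p was 0.94 (authors' deposited table).

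Stat2, which joins the interferon-stimulated complex ISGF3, was far below the others. It was at 4.51 FPKM in SAA1 cells and 4.76 FPKM in vehicle cells, with a log2 ratio of -0.08 ± 0.23 and a 95% interval from 0.694-fold to 1.30-fold. The authors' deposited table gives Stat2 an adjusted p of 0.93. Among all tested rows the level of Stat2 lay at percentile 25.7 in SAA1 cells and percentile 26.8 in vehicle cells. The other 5 genes lay between percentiles 83.5 and 93.9 in SAA1 cells and between percentiles 80.8 and 92.4 in vehicle cells.

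In descending order of level, both groups ran Stat3, Stat5a, Stat6, Stat4, Stat5b and Stat2. Some neighbours in this order were close. Stat4 and Stat5b lay 0.03 apart on the log2 scale in SAA1 cells and 0.10 in vehicle cells, and Stat3 and Stat5a lay 0.33 apart in SAA1 cells and 0.07 in vehicle cells. Except for the gap of 0.33, these gaps are smaller than the SE of about 0.20 that the deposited statistic implies for a ratio between groups of Stat3, Stat4, Stat5a or Stat5b, and no error within a group was given. The widest step was from Stat5b to Stat2, at 3.59 in SAA1 cells and 3.32 in vehicle cells. Summed over the 6 genes the level was 433 FPKM in SAA1 cells and 405 FPKM in vehicle cells, of which Stat3 made up 30.9% in SAA1 cells and 27.7% in vehicle cells.

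**Figure D2:**
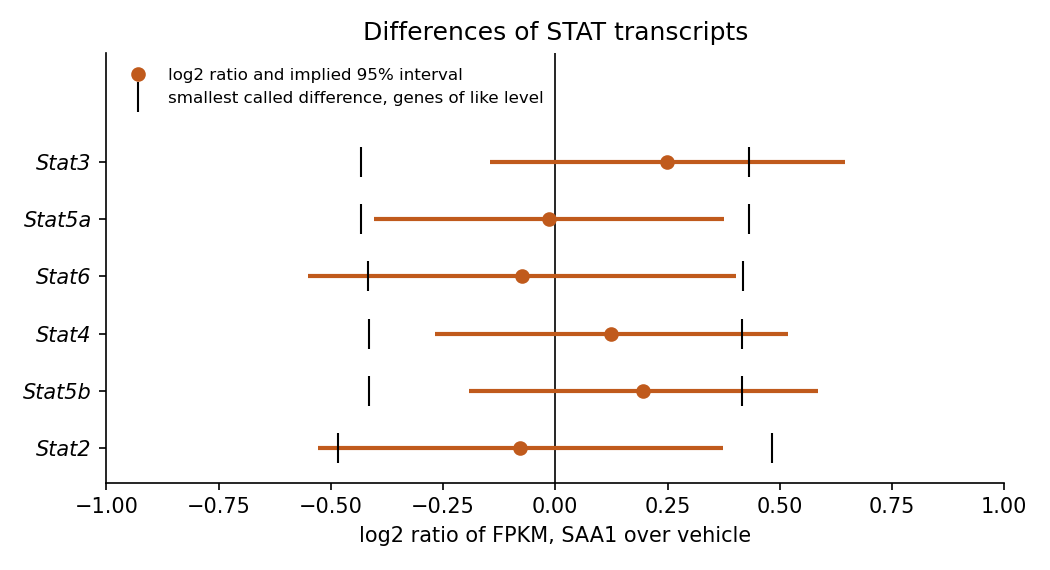
log2 ratio of FPKM, SAA1 over vehicle, for each STAT gene (points) with the 95% interval implied by the deposited test statistic (bars). Upright ticks mark, on either side, the smallest absolute log2 ratio that was called among genes of like level, from 0.42 to 0.48. All 6 intervals cross 0 and all 6 points lie inside the ticks.

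The differences called at these levels were read from genes of like abundance, taken as rows with a mean level within 1.5-fold of the member's. The smallest called difference is not a detection limit, since larger differences can remain uncalled. Around Stat3 there were 810 such rows, of which 32 (3.95%) were called, and the smallest called difference was 0.43 on the log2 scale (1.35-fold). Around Stat2 there were 1530 rows, of which 162 (10.6%) were called, with a smallest called difference of 0.48 (1.40-fold). Around Stat4, Stat5a, Stat5b and Stat6 the called shares were 3.05%, 3.59%, 3.07% and 3.67%, and the smallest called differences lay between 0.42 and 0.43. The median called difference on the log2 scale was 0.54 around Stat3 and 0.82 around Stat2. Around the other 4 genes it lay between 0.50 and 0.54. Over the whole table the smallest called difference was 1.33-fold. The intervals of Stat3 and Stat5b, which treat the deposited statistic as normal, reach 1.5-fold or beyond. Read in that way the statistic gives p of 0.217 for Stat3 and 0.324 for Stat5b. Cuffdiff's deposited unadjusted p were 0.077 and 0.162, so these intervals are wider than the deposited p would imply. For Stat2 the interval ran from 0.694-fold to 1.30-fold, and for Stat5a from 0.756-fold to 1.30-fold.

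**Figure D3:**
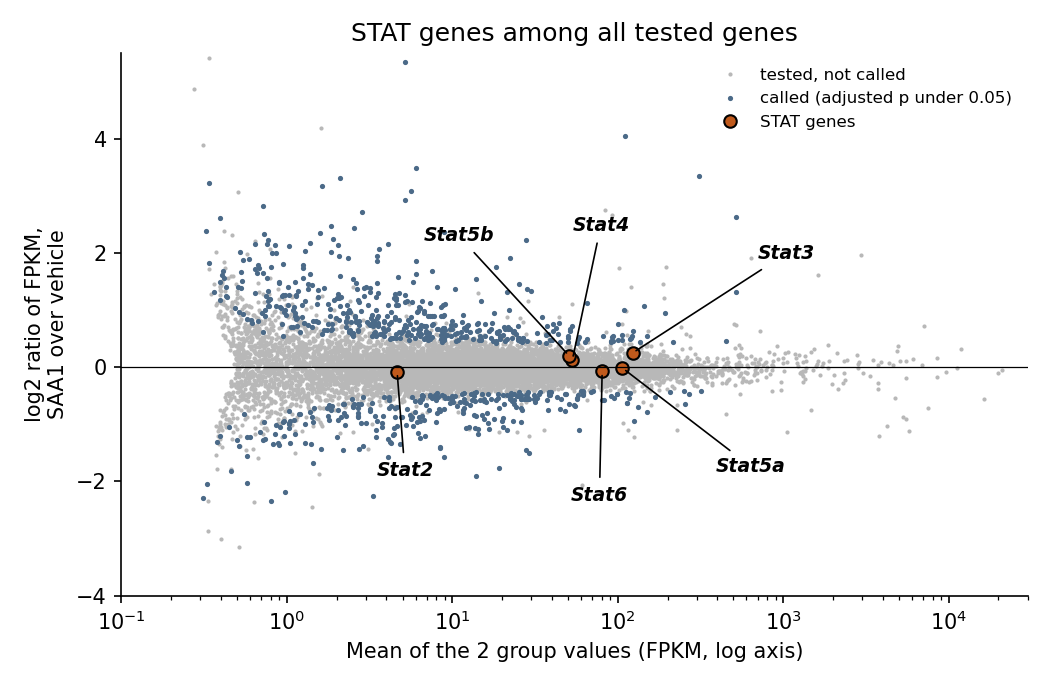
log2 ratio of FPKM, SAA1 over vehicle, against the mean of both group values (log axis) for 11403 tested genes with a finite ratio, of which 11 uncalled ones lie beyond the axes. The 6 STAT genes (large points) sit in the band of genes that were not called.

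The median log2 ratio of the 6 genes was 0.05, beside -0.02 over all tested rows. Nearest to Stat3 in the plane of its SAA1 and vehicle levels, over 2 group values, were Ubxn1, Prdx5 and 0610009D07Rik, at log2 distances of 0.05, 0.06 and 0.07. Of these, Ubxn1 was at 133 FPKM in SAA1 cells and 117 FPKM in vehicle cells (log2 ratio 0.19). With 2 values per gene this likeness says only that level and ratio were alike.

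The 6 genes lie on 3 chromosomes. On mm10, the deposited loci put Stat5b (chr11:100780731-100850585, minus strand), Stat5a (chr11:100859351-100885169, plus strand) and Stat3 (chr11:100886810-100939511, minus strand) side by side on chromosome 11, with 8765 bases between Stat5b and Stat5a and 1640 between Stat5a and Stat3. Stat6 (chr10:127642986-127666703) and Stat2 (chr10:128270576-128292849) are both on the plus strand of chromosome 10, more than 100 kb apart. Stat4 (chr1:52008244-52107184) is on the plus strand of chromosome 1. The locus of Stat4 starts inside the GENCODE gene, which begins at 51987148. The locus of Stat6 is shared with Nab2, a corepressor of EGR factors. Nab2 stood at 55.2 FPKM in SAA1 cells and 54.6 FPKM in vehicle cells. The Stat6 gene itself ends at 127660957 in GENCODE. The library kit is not stated to keep strand, so reads in any overlap of the 2 genes cannot be assigned.

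Within 100 kb of a member, 34 other rows were found, of which 23 were tested. Of these 23, 1 was called, which is not above the 6.52% called over all tested rows. The called gene was Il23a, which encodes the p19 subunit of IL-23, a cytokine that signals through STAT3 and STAT4. It starts 3290 bases beyond the end of Stat2 (chr10:128296140-128298084). Il23a was at 5.24 FPKM in SAA1 cells and 3.10 FPKM in vehicle cells, and rose with a log2 ratio of 0.76 ± 0.32 (adjusted p 0.022 in the authors' deposited table). Its neighbour Stat2 had a log2 ratio of -0.08, as given above, and the difference between the neighbours was not tested.

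Genes on either side of the STATs in the pathway were counted from 14 lists, together 120 genes of which 90 were tested. The authors' deposited table called 13 of these higher and 8 lower, 23.3% of those tested against the background of 6.52%. The lists were chosen with earlier results of these data known, so this share describes them and supports nothing. Of the 120 genes, 17 stand in more than 1 list.

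**Figure D4:**
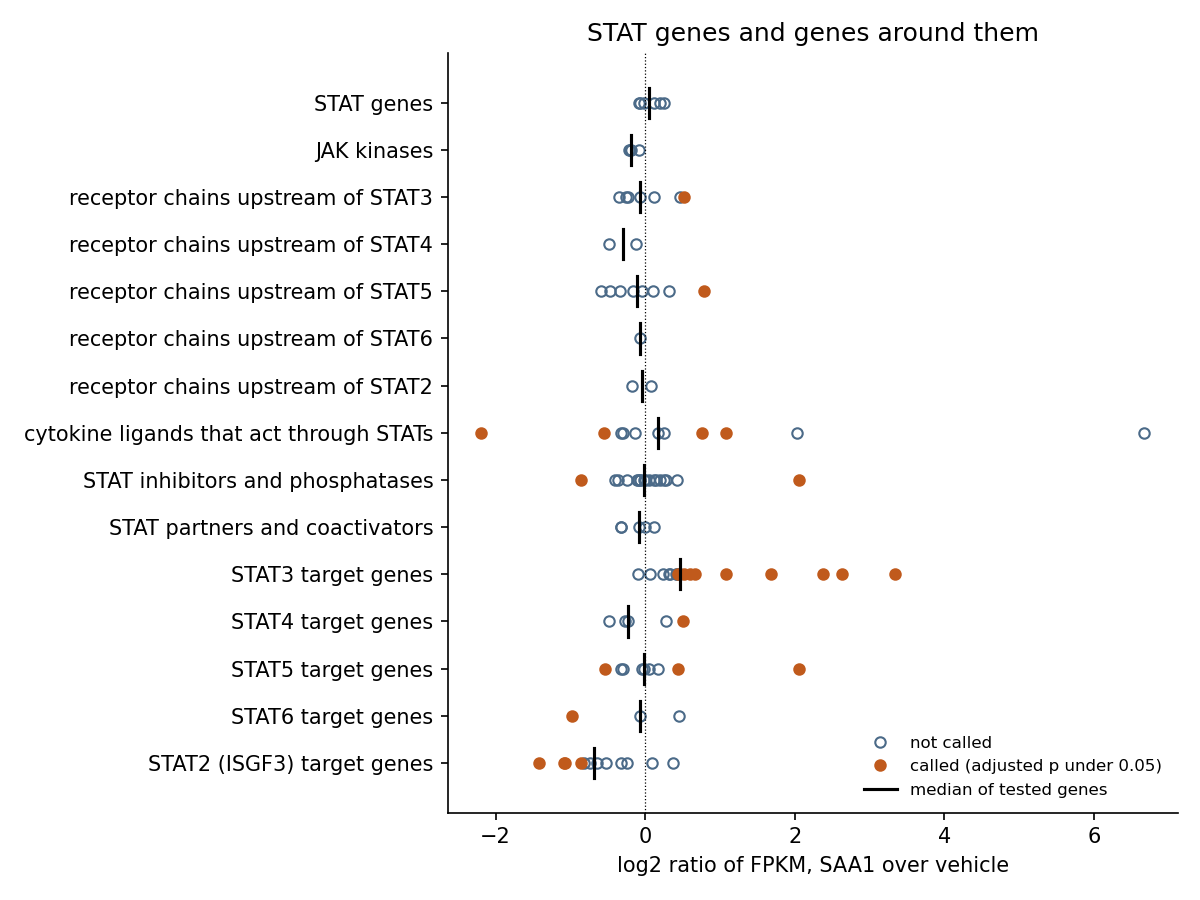
log2 ratio of FPKM, SAA1 over vehicle, for each tested gene (points) of the STAT family and of 14 pathway lists, filled where the adjusted p was under 0.05, with the median of each row as an upright bar. No STAT gene and no JAK gene is filled, while 9 of 17 STAT3 targets are filled on the right and 4 of 12 STAT2 targets on the left. The open point at 6.67 is Il9.

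The JAK kinases, which phosphorylate STATs, showed 0 calls among 4 genes in Cuffdiff's test, as in the authors' deposited table. Over all tested rows 6.52% were called. Of the 4 kinases, 0 had an unadjusted p under 0.05, against 15.8% of all tested rows. The median log2 ratio of the kinases was -0.19, beside -0.02 over all tested rows, and all 4 had values below 0. Jak2 was at 165 FPKM in SAA1 cells and 189 FPKM in vehicle cells (adjusted p 0.58 in the authors' deposited table). Tyk2, which serves the receptors of IL-12, IL-23 and interferon, was at 14.5 FPKM in SAA1 cells and 16.9 FPKM in vehicle cells (0.52). Jak1 and Jak3, which serve the receptors with the common gamma chain, had log2 ratios of -0.19 and -0.08.

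Of the receptor chains, 1 above STAT3 and 1 above STAT5 were called, beside 6.52% called over all tested rows. Single calls in such short lists are not read as a trait of the lists. Each chain was placed in 1 receptor list only, although a receptor can serve more than 1 STAT, as IL-23 signals through STAT3 and STAT4. The counts depend on that placing. By the authors' deposited table, 1 of 7 tested chains upstream of STAT3 was called higher and 0 were called lower (median log2 ratio -0.07). It was Il23r, at 10.5 FPKM in SAA1 cells and 7.32 FPKM in vehicle cells (log2 ratio 0.52 ± 0.23). Il6ra, the IL-6 receptor, was at 6.71 FPKM in SAA1 cells and 4.88 FPKM in vehicle cells and did not pass (adjusted p 0.076 in the authors' deposited table). Likewise 1 of 8 tested chains upstream of STAT5 was called higher and 0 were called lower (median log2 ratio -0.11). It was Il7r, the IL-7 receptor, at 2.88 FPKM in SAA1 cells and 1.67 FPKM in vehicle cells (log2 ratio 0.79 ± 0.30), and Il3ra, at 2.24 FPKM in SAA1 cells and 3.36 FPKM in vehicle cells, did not pass.

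Above the other STATs 0 of 5 tested receptor chains were called by Cuffdiff (authors' deposited table), against 6.52% of all tested rows. Of the 5, 1, Il12rb2, had an unadjusted p under 0.05, against 15.8% of all tested rows. Il12rb1 and Il12rb2, the IL-12 receptor above STAT4, were at 79.99 and 2.48 FPKM in SAA1 cells against 87.4 and 3.46 FPKM in vehicle cells, and the authors' deposited table gives them adjusted p of 0.79 and 0.15. Il4ra, the IL-4 receptor above STAT6, was at 55.04 FPKM in SAA1 cells and 57.8 FPKM in vehicle cells. Ifnar1 and Ifnar2, the type I interferon receptor above STAT2, had log2 ratios of -0.17 and 0.08.

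Ligands that signal through STATs went both ways. Of 22 genes 11 were tested, of which the authors' deposited table called 2 higher and 2 lower, and their median log2 ratio was 0.18. Il21, which sustains Th17 cells through STAT3, was at 196 FPKM in SAA1 cells and 92.8 FPKM in vehicle cells (log2 ratio 1.08 ± 0.20), and Il23a is given above. Il22, which signals to epithelial STAT3, fell to 0.348 FPKM in SAA1 cells, against 1.59 FPKM in vehicle cells (-2.19 ± 0.71). Il3, a growth factor that signals through STAT5, fell to 36.9 FPKM in SAA1 cells, against 54.1 FPKM in vehicle cells (-0.55 ± 0.22). Il9, named after its values were seen, had 24.4 FPKM in SAA1 cells and 0.239 FPKM in vehicle cells, yet did not pass (adjusted p 0.49 in the authors' deposited table).

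Among 18 tested inhibitors of STATs, 1 rose and 1 fell (authors' deposited table), against 3.97% and 2.55% of all tested rows. The median log2 ratio of the 18 was -0.01. Socs2, a feedback inhibitor induced by STAT5, rose to 5.78 FPKM in SAA1 cells, against 1.38 FPKM in vehicle cells (log2 ratio 2.06 ± 0.33). Usp18, a feedback inhibitor of the interferon receptor, fell to 1.25 FPKM in SAA1 cells, against 2.27 FPKM in vehicle cells (-0.86 ± 0.38). Of the 5 partners and coactivators, 0 were called, against 6.52% of all tested rows. In Cuffdiff's test 2 of the 5 had an unadjusted p under 0.05. These were Irf9, the DNA-binding partner of STAT2, at 10.6 FPKM in SAA1 cells and 13.2 FPKM in vehicle cells, and Nmi, at 17.03 FPKM in SAA1 cells and 21.4 FPKM in vehicle cells. Their adjusted p were both 0.26 in the authors' deposited table.

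Target genes of STAT3 were often higher with SAA1, beside a Stat3 transcript that was not called. Of 17 tested targets, 9 rose and 0 fell (authors' deposited table), against 3.97% of all tested rows called higher, and the median log2 ratio was 0.46. Il17a, which encodes the cytokine IL-17A, was at 568 FPKM in SAA1 cells and 56.0 FPKM in vehicle cells (3.34 ± 0.21), and Il17f had a log2 ratio of 2.64 ± 0.20. Maf and Ahr, transcription factors of Th17 cells, had log2 ratios of 2.37 ± 0.25 and 1.69 ± 0.22. Many of these genes answer to other factors as well as to STAT3.

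The lists of STAT5, STAT4 and STAT6 targets were shorter, with 9, 5 and 3 tested genes against 17 for STAT3. Their counts of calls are therefore not comparable with that of STAT3. Over all tested rows 6.52% were called. Of 9 tested STAT5 targets, 2 rose and 1 fell (authors' deposited table), and the median log2 ratio was -0.01. Socs2 is given above. Pim1, a kinase that promotes survival and is also in the list of STAT3 targets, was at 105 FPKM in SAA1 cells and 77.9 FPKM in vehicle cells. Ccnd2, a cyclin of the early cell cycle, fell to 94.96 FPKM in SAA1 cells, against 138 FPKM in vehicle cells (log2 ratio -0.54 ± 0.20). Of 5 tested STAT4 targets, 1 rose and 0 fell, with a median of -0.23. It was Furin, a protease induced by IL-12, at 142 FPKM in SAA1 cells and 99.9 FPKM in vehicle cells (0.50 ± 0.20). Of 3 tested STAT6 targets, 0 rose and 1 fell, with a median of -0.07. It was Gata3, the Th2 lineage factor, at 0.687 FPKM in SAA1 cells and 1.36 FPKM in vehicle cells (-0.98 ± 0.39), while Ccr8, at 26.2 FPKM in SAA1 cells and 19.2 FPKM in vehicle cells, did not pass.

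Among targets of the STAT2 complex, 4 of 12 tested were called lower with SAA1 (authors' deposited table), against 2.55% of all tested rows. The other 8 were not called, 0 rose, and the median log2 ratio of the 12 was -0.68. Ifit1, an antiviral RNA-binding protein, fell to 0.875 FPKM in SAA1 cells, against 2.35 FPKM in vehicle cells (-1.42 ± 0.35). Ifih1, an RNA sensor, fell to 10.7 FPKM in SAA1 cells, against 22.7 FPKM in vehicle cells (-1.09 ± 0.20). Oas3, an antiviral enzyme, had a log2 ratio of -1.07 ± 0.24, and Usp18 is given above. Stat2, whose window holds the interferon motif printed above, had a log2 ratio of -0.08 in the same cells, with a lower bound of 0.694-fold.

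Markers showed T cells in both groups. All 6 T cell markers lay between 28.2 and 304 FPKM in SAA1 cells and between 39.1 and 303 FPKM in vehicle cells, summing to 940 FPKM in SAA1 cells and 993 FPKM in vehicle cells. Cd3e was called lower by the authors' deposited table, at 28.2 FPKM in SAA1 cells and 39.1 FPKM in vehicle cells. The Th17 markers Il17a, Il17f, Il23r and Ccr6 were called higher, and of these Ccr6 alone is not in the list of STAT3 targets. None of 6 myeloid markers reached 1 FPKM, with sums of 0.382 FPKM in SAA1 cells and 0.534 FPKM in vehicle cells and C1qa listed at 0 in both. Of 4 B cell markers none reached 1 FPKM either, with sums of 1.34 FPKM in SAA1 cells and 1.90 FPKM in vehicle cells. Of 5 markers of CD8 and natural killer cells only Cd8b1 did, at 4.24 FPKM in SAA1 cells and 4.32 FPKM in vehicle cells, and Klrb1c was listed at 0 in both. The part of these markers in the results was not tested.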

How the data were processed

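Per the submitters' processing notes, reads were handled with TopHat2 and Cuffdiff, named without versions, and the builds mm9 and mm10 are named without a role. The loci of all 6 genes overlap their GRCm38 (mm10) positions, so mm10 coordinates are given, with starts counted from 1. Per the file headers, the deposited values are group values in FPKM, made by the authors' Cuffdiff run from both libraries of a group. Each gene's p-value, q-value and test statistic were likewise deposited by the authors, the statistic being a score that divides the log ratio by its SE. Of 23356 rows, 11481 had been tested, and the rest had too few or, in 1 row, too many fragments for a test.

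The log2 ratio was recomputed from the FPKM values, SAA1 over vehicle, with no pseudocount. Its standard error was taken as the ratio divided by the deposited statistic, and 95% intervals treat the statistic as normal. The authors' adjusted p under 0.05 was the call. It was checked as a Benjamini-Hochberg adjustment, and the arithmetic of the steps was run on simulated data. Those data were drawn as normal with the implied SE. They therefore cannot show whether the deposited statistic is normal or the intervals hold. Tests for counts or for FPKM per library had been foreseen and could not be run on group values. Analyses used Python 3.11.15, numpy 2.4.6, pandas 2.3.3 and scipy 1.17.1. The p-values rest on 2 libraries per group, whose spread may be technical.

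The 6 genes and all lists were chosen with earlier results of these data known. Named beside the 6 genes were, by rule, up to 4 called genes of each list by adjusted p, topped up to 2 by the largest log2 ratios at 1 FPKM or more, rows within 100 kb, and 3 genes nearest to Stat3. Lists of up to 5 genes could be named whole. Il9 and C1qa lie outside the rule and were named with their values in view, and most neighbours within 100 kb are given as counts only. The result of a further marker gene is not reported here. Alternatives changed the threshold, the adjustment, the pseudocount and the centring.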

Additional observations from a re-analysis of the deposited data

How the results depend on the processing

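None of the 6 STAT genes was called under the alternatives that could have added a call: a threshold of 0.1, an adjustment over rows with at least 1 FPKM, or removal of rows that share a locus. A threshold of 0.01, a Bonferroni adjustment and a fold minimum of 1.5 can only remove calls, a pseudocount cannot turn a direction, and a rescaling to TPM cannot change the order within a group, so these bear on nothing here. Centring could turn a direction, and did so for Stat5a, whose log2 ratio became 0.0035 when ratios were centred on the median of all tested rows, a shift of 0.02. Stat6 shares its locus with Nab2 and had no value after removal of shared loci. A p read from the deposited statistic as a normal deviate, an alternative chosen after seeing the data, called 247 rows in place of 749, and still 0 of the 6 genes. For Stat3 this p was 0.217 in place of 0.077, and over all alternatives its adjusted p ran from 0.36 to 1. Calls over all pathway lists stayed within 1.5 times, but 8 of 28 counts of single lists moved further. At 0.1 the calls became 2 receptor chains for STAT3, 2 for STAT5, 4 inhibitors, 2 STAT6 targets and 7 STAT2 targets, and with the fold minimum 0 receptor chains for STAT3, 0 STAT4 targets and 1 STAT5 target. No paired analysis was possible because the table has 1 value per group, and for the same reason no library could be left out. Depth is unknown, so what it limits cannot be stated beyond the intervals given.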
